A study of Homo sapiens with 4 samples.

Results

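The genes described here make, carry and read the calcium signal that acts on calcineurin, in U87 cells, an established human glioblastoma line. They are calmodulins, calmodulin-dependent kinases, calcineurin inhibitors and an anchor, NFAT kinases, phospholipases C, release channels, entry channels, calcium pumps, the mitochondrial uniporter and 3 S100 proteins. They were chosen by gene symbol as 37 names, of which 36 stood among the 19749 genes of the authors' deposited table. The authors tested 35 of these. RCAN2, with a mean level of 2.90 in the authors' deposited table, had no adjusted p, and the name MICU2 stood there under its older symbol EFHA1, which is given separately. Cells in medium with serum received the small molecule YZ129 at 5 µM for 24 h (n = 2 libraries) or the vehicle DMSO (n = 2 libraries). By the series title the compound is linked to inhibition of HSP90, calcineurin and NFAT, and the comparison asked which transcripts differed after treatment. All 4 samples described came from U87, a single cell line.

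The data hold no value per library. For each gene there is a mean level (normalized counts), a log2 fold change and its standard error (SE), and an adjusted p. The mean level is an average over 8 libraries, 4 more than the samples described, and it is not divided by transcript length. The source of the other 4 libraries is not known here. A mean level therefore shows how much signal stood behind a gene, and it does not rank the transcripts of different genes by abundance. Fold changes had been moderated towards 0 by the authors. They are read here as YZ129 over DMSO, although no column states the direction and the comparison is named with DMSO ahead of the compound. The reading rests on cytosolic heat shock genes, which are known to be induced when HSP90 is inhibited. Of 22 tested, 11 passed as positive and 0 as negative in the authors' deposited table, whose columns are those of DESeq2. Of all tested genes 5.24% passed as positive and 7.64% as negative. At an unadjusted p under 0.05, 14 of the heat shock genes were positive and 1 negative. HSPA6 (2.64), BAG3 (0.99) and HSPH1 (0.88) were among those that passed. The other 11 did not pass, among them HSP90AA1 (-0.04), HSP90AB1 (0.05), STIP1 (0.04) and PTGES3 (-0.47). Of the 22, 19 lay above 0 and 3 below. Under the opposite reading each "fell" becomes "rose" and each "lower" becomes "higher". A gene is said to have changed where the authors' adjusted p was under 0.05, and a 95% interval is the log2 change ± 1.96 SE.

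In a resting cell calcium is kept low in the cytosol by pumps that move it out of the cell or into the endoplasmic reticulum. Receptors activate phospholipase C, which makes inositol trisphosphate, and this opens the IP3 receptors of the reticulum. When the store empties, STIM proteins open ORAI channels in the plasma membrane, and the calcium that enters binds calmodulin. Calcium-bound calmodulin switches on both calcineurin, which dephosphorylates NFAT, and the calmodulin kinases.

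Where these genes changed, they fell. Of 35 tested members 6 fell and 0 rose by the authors' adjusted p (DESeq2 columns), and 29 did not pass; at an unadjusted p under 0.05, 7 were lower and 0 higher. The 6 were the IP3 receptor ITPR1, the kinase CAMKK1, the entry channels ORAI3 and ORAI1, the calmodulin gene CALM2 and the phospholipase PLCD1. The largest change, that of ITPR1, was 1.77-fold. Thus 17.1% of the tested members were lower and 0% higher. Among all 14812 tested genes 12.9% passed in either direction, 7.64% lower and 5.24% higher. Among the 11726 genes whose mean level was 100 or more, which every tested member reached, 14.6% passed, 9.39% lower and 5.19% higher. The median log2 change of the members was -0.14, against -0.05 for all tested genes and -0.09 for those with a level of at least 100. Below 0 lay 29 of the 35 members, as did 62.2% of genes at that level. Unadjusted p-values under 0.05 were common among all tested genes. The calcium pathway gene AHCYL1, at 0.047 by the authors' Wald test, ranked 3611 among the 14812. The unadjusted counts of the members and of the roles below are therefore not read as changes. Counts by role are to be read beside the all-gene shares given here.

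The changes moved with the level across the whole table, from a median of 0.32 in the lowest decile of mean level to -0.16 in the highest. After the median of the same decile was subtracted, all-gene calls went from 776 higher and 1132 lower to 920 higher and 804 lower. By that measure ITPR1, CAMKK1, ORAI3 and CALM2 still passed as lower and 0 members as higher. ORAI1 (adjusted p = 0.080) and PLCD1 (adjusted p = 0.052) no longer passed this alternative, a normal test of the centred changes with Benjamini-Hochberg adjustment over all tested genes. The members' median became -0.03, with 21 below 0 and 14 above.

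**Figure D1:**
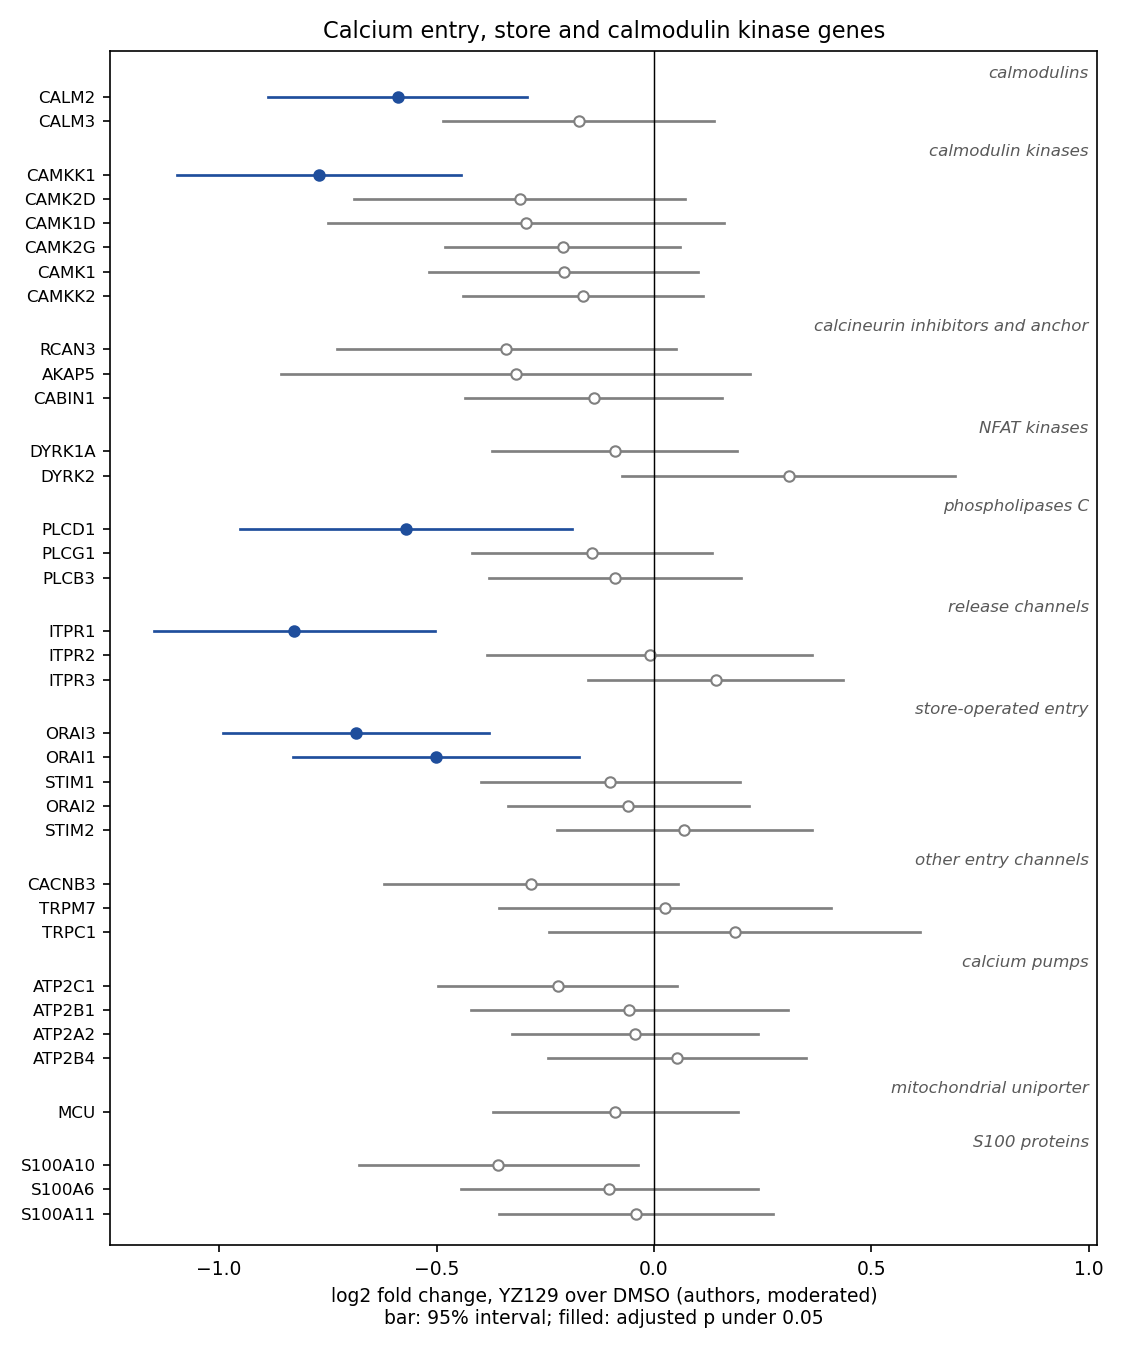
The log2 fold change (horizontal axis, YZ129 over DMSO, the authors' moderated values) of each of the 35 tested members, grouped by role, with bars for the 95% interval and filled points for an adjusted p under 0.05. The 6 filled points lie between -0.83 and -0.50, and the open points between -0.36 and 0.31.

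The calmodulin genes CALM2 and CALM3 encode the same protein, the calcium sensor that calcineurin and the kinases bind, and CALM2 was the lower of the pair. In the authors' deposited table CALM2 had a mean level of 21588 and fell by 0.59 ± 0.15 on the log2 scale (SE; adjusted p = 0.0020). CALM3 had a mean level of 7483 and a log2 change of -0.17 ± 0.16 (adjusted p = 0.55) in the authors' deposited table. Its 95% interval ran from -0.49 to 0.14, while that of CALM2 ran from -0.89 to -0.29, so the intervals overlap and the difference between the genes was not tested. The GENCODE annotation holds 4 pseudogenes named for CALM2, whose sequences resemble the parent transcript, so reads may be shared with them.

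Of the 6 calmodulin kinases among the members, CAMKK1 fell and the other 5 lay below 0 without passing. CAMKK1 and CAMKK2 are the upstream kinases that phosphorylate CAMK1, CAMK4 and, for CAMKK2, the energy sensor AMPK. CAMKK1 fell 1.71-fold, by 0.77 ± 0.17 on the log2 scale, in the authors' deposited table (mean level 869, adjusted p = 0.00011). Its change was lower than that of all but 2.88% of tested genes. CAMKK2 stood at -0.16 ± 0.14 (adjusted p = 0.51) in the authors' deposited table. The 95% intervals, from -1.097 to -0.4443 for CAMKK1 and from -0.4381 to 0.113 for CAMKK2, come close without overlapping, and the difference was not tested.

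The downstream kinases among the members did not pass. CAMK1 had a log2 change of -0.21 ± 0.16 and its paralog CAMK1D one of -0.29 ± 0.23 in the authors' deposited table. CAMK2D and CAMK2G encode subunits of the multimeric kinase CaMKII. They had log2 changes of -0.31 ± 0.19 and -0.21 ± 0.14 in the authors' deposited table, and adjusted p of 0.33 and 0.35. Their intervals, together with those of CAMK1, CAMK1D and CAMKK2, reached from -0.75 to 0.16.

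Other genes of this kinase group came from a list of calcium pathway genes outside the members. Of 4 tested, 3 fell and 0 rose in the authors' deposited table with DESeq2 columns, against 7.64% lower and 5.24% higher of all tested genes. At an unadjusted p under 0.05 the counts were also 3 and 0. With 4 genes on a list chosen with results known, this count is a description only. CAMK2N1 and CAMK2N2 encode inhibitors of CaMKII, not kinases. In the authors' deposited table CAMK2N1 fell by 0.68 ± 0.17 (adjusted p = 0.0010) and CAMK2N2 by 0.60 ± 0.21 (adjusted p = 0.040) on the log2 scale. The fall of CAMK2N2 did not pass after centring on the level (adjusted p = 0.064, normal test with Benjamini-Hochberg adjustment). The CaMKII subunit CAMK2A, with a mean level of 57.3, fell by 1.19 ± 0.35 (adjusted p = 0.0091), and CAMK4 stood at -0.34 ± 0.20 (adjusted p = 0.29) in the authors' deposited table.

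The calcineurin inhibitors and the anchor gave 0 calls among 3 tested members, and 0 at an unadjusted p under 0.05, in the authors' deposited table with DESeq2 columns. RCAN3, of the family of regulators that bind calcineurin, had a log2 change of -0.34 ± 0.20 (adjusted p = 0.28) in the authors' deposited table. CABIN1, which encodes a calcineurin-binding repressor, had -0.14 ± 0.15, and AKAP5, the scaffold that holds calcineurin and protein kinase A at the membrane, -0.32 ± 0.28 on the log2 scale in the authors' deposited table. The mean level of AKAP5 was 118, and its interval from -0.86 to 0.22 was the widest of them. From the list of other genes, CHP1, whose protein resembles the calcineurin B subunit, fell by 0.38 ± 0.13 (adjusted p = 0.038) and the scaffold gene AKAP12 rose by 0.53 ± 0.14 (adjusted p = 0.0024) on the log2 scale in the authors' deposited table. The fall of CHP1 did not pass after centring on the level (adjusted p = 0.33, normal test with Benjamini-Hochberg adjustment).

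The genes of calcineurin itself and of NFAT stood as follows in the same comparison. By the authors' deposited table, 1 of 10 tested calcineurin, NFAT and related genes rose and 0 fell, with 2 and 2 at an unadjusted p under 0.05 (DESeq2 columns). NFATC2, one of the calcium-regulated NFAT factors, rose 2.04-fold (1.03 ± 0.18 on the log2 scale), and RCAN1, itself a known NFAT target, stood at 0.35 ± 0.14 (adjusted p = 0.072) in the authors' deposited table. RCAN1 passed after centring on the level, at 0.51 (adjusted p = 0.0041, normal test with Benjamini-Hochberg adjustment). The catalytic subunit genes PPP3CA, PPP3CB and PPP3CC had log2 changes of -0.54 ± 0.23, -0.23 ± 0.17 and 0.14 ± 0.15 in the authors' deposited table. The regulatory subunit PPP3R1 had -0.28 ± 0.20, and NFATC3, NFATC4, NFAT5 and NFATC2IP had 0.13 ± 0.15, -0.50 ± 0.19, 0.12 ± 0.41 and 0.26 ± 0.14 on the same scale in the authors' deposited table.

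The NFAT kinases DYRK1A and DYRK2, which phosphorylate NFAT and so oppose calcineurin, gave 0 calls and 0 at an unadjusted p under 0.05 in the authors' deposited table with DESeq2 columns. DYRK1A had a log2 change of -0.09 ± 0.14 in the authors' deposited table, an interval from -0.37 to 0.19. DYRK2 had the highest value of the 35 members, 0.31 ± 0.20 (adjusted p = 0.33), in the authors' deposited table. Among 8 other kinases of NFAT or of this family, 1 rose and 1 fell in the authors' deposited table: DYRK3 rose by 0.59 ± 0.15 (adjusted p = 0.0012), and DYRK1B fell by 0.45 ± 0.16 (adjusted p = 0.044) on the log2 scale. The fall of DYRK1B did not pass after centring on the level (adjusted p = 0.12, normal test with Benjamini-Hochberg adjustment). The kinases GSK3A, GSK3B and CSNK1A1, which also phosphorylate NFAT, lay at -0.01 ± 0.16, -0.01 ± 0.15 and 0.02 ± 0.16 in the authors' deposited table.

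Of the phospholipases C, which split a membrane lipid into inositol trisphosphate and diacylglycerol, PLCD1 was the 1 member that fell. PLCD1, a delta isoform whose activity depends on calcium itself, fell 1.49-fold in the authors' deposited table, by 0.57 ± 0.19 on the log2 scale (mean level 393, adjusted p = 0.032). The fall of PLCD1 did not pass after centring on the level (adjusted p = 0.052, normal test with Benjamini-Hochberg adjustment). PLCB3, which G protein-coupled receptors activate, had -0.09 ± 0.15, and PLCG1, which receptor tyrosine kinases activate, -0.14 ± 0.14 on the log2 scale in the authors' deposited table. The intervals of PLCB3 and PLCG1 lay within -0.42 and 0.20. Of 9 other phospholipase C genes 0 passed in the authors' deposited table with DESeq2 columns, and at an unadjusted p under 0.05 there was 1, which was higher. The other delta isoforms PLCD3 and PLCD4, named after their values were seen, had log2 changes of 0.01 ± 0.16 and -0.05 ± 0.18 in the authors' deposited table.

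Among the IP3 receptors, the channels through which the reticulum releases calcium, ITPR1 fell and its paralogs did not pass. ITPR1 had a mean level of 5430 and fell 1.77-fold in the authors' deposited table, by 0.83 ± 0.16 on the log2 scale (adjusted p = 2.1e-05). Its change was lower than that of all but 2.41% of tested genes, and it ranked 369 by adjusted p among the 14812. ITPR2 stood at -0.01 ± 0.19 (mean level 2224, adjusted p = 0.98) and ITPR3 at 0.14 ± 0.15 (mean level 5763, adjusted p = 0.61) on the log2 scale in the authors' deposited table. The interval of ITPR1 ran from -1.15 to -0.50, that of ITPR2 from -0.38 to 0.36 and that of ITPR3 from -0.15 to 0.44. The ITPR1 interval thus touches neither of the others, although the differences between the paralogs were not tested. In the annotation exons of ITPR1 overlap an antisense gene, and exons of CALM2 and ORAI3 each overlap another gene on the same strand, with which reads may be shared. These overlapping genes were absent from the authors' deposited table, and the annotation is on GRCh38 while the submitters' notes name hg19. Exons of CALM3 overlap PPP5D1 on the opposite strand, which had a mean level of 9.43 in the authors' deposited table. No source used here states whether the counts used strand.

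Other genes of calcium release and of inositol phosphate handling went both ways. Of 14 tested, 3 rose and 1 fell in the authors' deposited table. The ryanodine receptor gene RYR2, the release channel known from heart muscle, rose by 1.04 ± 0.27 (mean level 167, adjusted p = 0.0017), and ITPRIP, which encodes a protein that binds IP3 receptors, by 0.64 ± 0.14 (adjusted p = 0.00013) on the log2 scale in the authors' deposited table. The kinases that phosphorylate inositol trisphosphate split: ITPKC rose by 0.50 ± 0.17 and ITPKA fell by 0.55 ± 0.19 on the log2 scale, each at an adjusted p of 0.038, in the authors' deposited table. The fall of ITPKA did not pass after centring on the level (adjusted p = 0.064, normal test with Benjamini-Hochberg adjustment).

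In store-operated entry the channel genes ORAI1 and ORAI3 fell, and the sensors STIM1 and STIM2 did not pass. ORAI3 had a mean level of 895 and fell 1.61-fold in the authors' deposited table, by 0.69 ± 0.16 on the log2 scale (adjusted p = 0.00029). ORAI1, the pore subunit of the classical calcium release-activated current, had a mean level of 1061 and fell 1.42-fold, by 0.50 ± 0.17 (adjusted p = 0.028), in the authors' deposited table. The fall of ORAI1 did not pass after centring on the level (adjusted p = 0.080, normal test with Benjamini-Hochberg adjustment). ORAI2, with a mean level of 4787, had a log2 change of -0.06 ± 0.14 (adjusted p = 0.84) in the authors' deposited table. The intervals were -0.99 to -0.38 for ORAI3, -0.83 to -0.17 for ORAI1 and -0.34 to 0.22 for ORAI2. That of ORAI2 overlaps the interval of ORAI1 and not that of ORAI3; the differences were not tested.

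The sensors of store calcium lay close to 0. STIM1 had a log2 change of -0.10 ± 0.15 and STIM2 one of 0.07 ± 0.15 in the authors' deposited table, with intervals from -0.40 to 0.20 and from -0.22 to 0.36. Of 6 other genes of this step 1 fell and 0 rose in the authors' deposited table with DESeq2 columns, and 2 were lower and 0 higher at an unadjusted p under 0.05. That gene, EFCAB4A (now CRACR2B), a relative of the ORAI regulator CRACR2A, had the smallest adjusted p of all the calcium genes examined: it fell 3.03-fold, by 1.60 ± 0.16 on the log2 scale (adjusted p = 5.3e-20), in the authors' deposited table. The STIM1 partner genes TMEM110 and TMEM66 (now SARAF), named after their values were seen, had -0.19 ± 0.15 and -0.22 ± 0.15 on the log2 scale in the authors' deposited table.

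**Figure D2:**
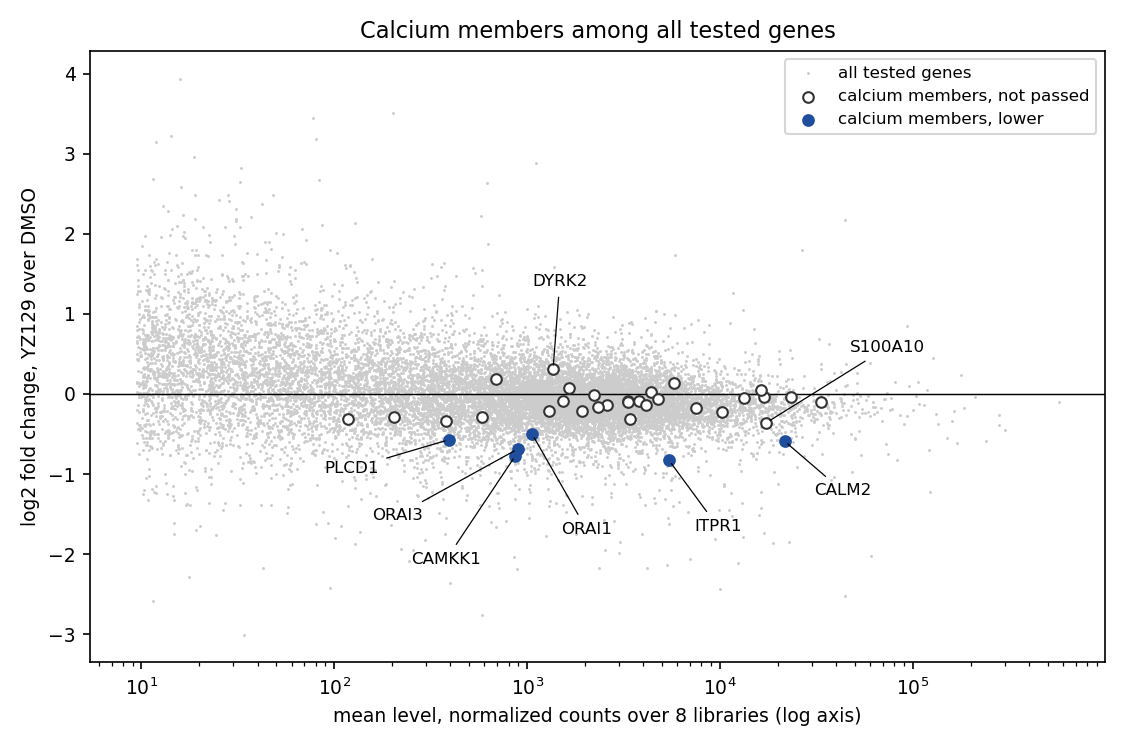
The log2 fold change (vertical axis) against the mean level over 8 libraries (horizontal log axis) for all 14812 tested genes in grey, with the 35 tested members as circles, filled where they fell. ITPR1, CAMKK1 and ORAI3 lie lowest among the members, at -0.83, -0.77 and -0.69, and S100A10 at -0.36 and DYRK2 at 0.31 are labelled as members that did not pass.

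Of the 6 members that fell, CALM2, ORAI1 and PLCD1 had no promoter sequence at hand. The promoters of ITPR1, ORAI3 and CAMKK1, also the members with the smallest adjusted p, are shown. They were searched for the short cores bound by NFAT, the factor of the study's pathway, and by the hypoxia-inducible factor (HIF). Each is the 250 bases before a transcription start in RefSeq (GRCh38.p14), 5′ to 3′ on the gene's own strand, at chr3:4493098-4493347 (plus strand), chr16:30948818-30949067 (plus strand) and chr17:3893054-3893303 (minus strand). Capitals mark the NFAT core, searched as GGAAA, and the core bound by HIF, which has the form GCGTG and also the form ACGTG. Both strands were searched, so that the complement of each is marked too; the form with A can overlap its own complement.
ITPR1: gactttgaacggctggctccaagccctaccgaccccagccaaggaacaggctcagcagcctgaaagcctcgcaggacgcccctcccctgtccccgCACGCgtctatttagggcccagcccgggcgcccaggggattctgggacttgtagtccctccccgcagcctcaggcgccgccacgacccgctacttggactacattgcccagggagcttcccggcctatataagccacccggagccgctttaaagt
ORAI3: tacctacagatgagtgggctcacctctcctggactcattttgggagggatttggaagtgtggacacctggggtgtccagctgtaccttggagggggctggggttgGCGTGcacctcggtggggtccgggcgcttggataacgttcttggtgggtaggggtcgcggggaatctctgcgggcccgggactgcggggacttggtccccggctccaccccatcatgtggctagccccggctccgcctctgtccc
CAMKK1: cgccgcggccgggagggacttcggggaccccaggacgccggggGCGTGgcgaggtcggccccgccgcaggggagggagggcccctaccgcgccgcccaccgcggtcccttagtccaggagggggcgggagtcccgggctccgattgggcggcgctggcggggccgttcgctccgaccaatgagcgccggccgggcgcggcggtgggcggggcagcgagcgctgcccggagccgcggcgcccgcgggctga
Each window holds 1 marked match, and in each it is the HIF core with G, on the strand shown in ORAI3 and CAMKK1 and as its complement in ITPR1. The match begins 155 bases before the start in ITPR1, 145 in ORAI3 and 207 in CAMKK1. CAMKK1 has a further listed start, whose window holds GGAAA beginning 180 bases before it. Over all 35116 promoters of this length, 32.2% hold the HIF core with G, 18.5% the HIF core with A and 55.6% the NFAT core, on either strand. Among 54 promoters of 32 members the shares were 40.7%, 9.26% and 40.7%. A match describes letters only, and binding was not measured.

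The other entry channels among the members gave 0 calls among 3, and 0 at an unadjusted p under 0.05, in the authors' deposited table with DESeq2 columns. CACNB3, an accessory subunit of voltage-gated calcium channels, had a log2 change of -0.28 ± 0.17 (adjusted p = 0.31) in the authors' deposited table. The cation channel gene TRPC1 had 0.19 ± 0.22 and TRPM7, a channel fused to a kinase, 0.03 ± 0.19 on the log2 scale in the authors' deposited table. Among 25 other entry channel genes, 3 rose and 0 fell in the authors' deposited table with DESeq2 columns, against 4 and 1 at an unadjusted p under 0.05. TRPC4 rose 2.05-fold (1.03 ± 0.20, mean level 246, adjusted p = 1.9e-05), the capsaicin receptor TRPV1 by 0.89 ± 0.20 (mean level 272, adjusted p = 0.00034) and the P/Q-type channel CACNA1A by 0.52 ± 0.15 (mean level 3942, adjusted p = 0.0076) on the log2 scale in the authors' deposited table.

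Calcium pumps showed no change that passed. Of 4 members 0 were called and 0 reached an unadjusted p under 0.05 in the authors' deposited table with DESeq2 columns. ATP2A2, the SERCA pump that refills the reticulum and the target of thapsigargin, had a mean level of 23302 and a log2 change of -0.04 ± 0.14 in the authors' deposited table. The plasma membrane pumps ATP2B1 and ATP2B4 had -0.06 ± 0.19 and 0.05 ± 0.15, and the Golgi pump ATP2C1 -0.22 ± 0.14, on the log2 scale in the authors' deposited table. All 4 intervals lay between -0.50 and 0.35. Of 8 other genes of pumps, exchangers and pump regulators 1 rose and 0 fell in the authors' deposited table, with the same counts at an unadjusted p under 0.05. That gene, SLC8A2, a sodium-calcium exchanger, had a log2 change of 2.58 ± 0.63 (adjusted p = 0.0010) at a mean level of only 16.1.

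At the mitochondrial uniporter the pore gene MCU had a log2 change of -0.09 ± 0.14 (adjusted p = 0.76) in the authors' deposited table. EFHA1, the older symbol of its gatekeeper MICU2, had -0.12 ± 0.20 (mean level 1253, adjusted p = 0.76) on the log2 scale in the authors' deposited table. Of 8 other genes of mitochondrial calcium entry 2 fell and 0 rose in the authors' deposited table with DESeq2 columns, against 3 and 0 at an unadjusted p under 0.05. CCDC109B (now MCUB), a paralog of the pore known to lower uniporter activity, fell by 0.49 ± 0.15 (adjusted p = 0.014), and VDAC1, the main channel of the outer membrane, by 0.48 ± 0.14 (adjusted p = 0.0088) on the log2 scale in the authors' deposited table. Neither passed after centring on the level, with adjusted p of 0.081 for CCDC109B and 0.13 for VDAC1 (normal test with Benjamini-Hochberg adjustment).

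The S100 genes encode small calcium-binding proteins, and none of the 3 members passed in the authors' deposited table with DESeq2 columns, while 1 was lower at an unadjusted p under 0.05. That gene was S100A10, the partner of annexin A2, with a log2 change of -0.36 ± 0.16 (mean level 17394, adjusted p = 0.14) in the authors' deposited table; it was the member nearest to passing. S100A6 had -0.10 ± 0.17 (mean level 33493) and S100A11 -0.04 ± 0.16 (mean level 16871) on the log2 scale in the authors' deposited table. Of 12 other S100 and annexin-linked genes 1 fell and 0 rose in the authors' deposited table with DESeq2 columns, against 2 and 1 at an unadjusted p under 0.05. S100A3 fell by 0.63 ± 0.22 (mean level 233, adjusted p = 0.038) and ANXA2 stood at -0.24 ± 0.16 on the log2 scale in the authors' deposited table. ANXA2 was named after its value was seen. The GENCODE annotation holds 2 pseudogenes named for S100A11.

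**Figure D3:**
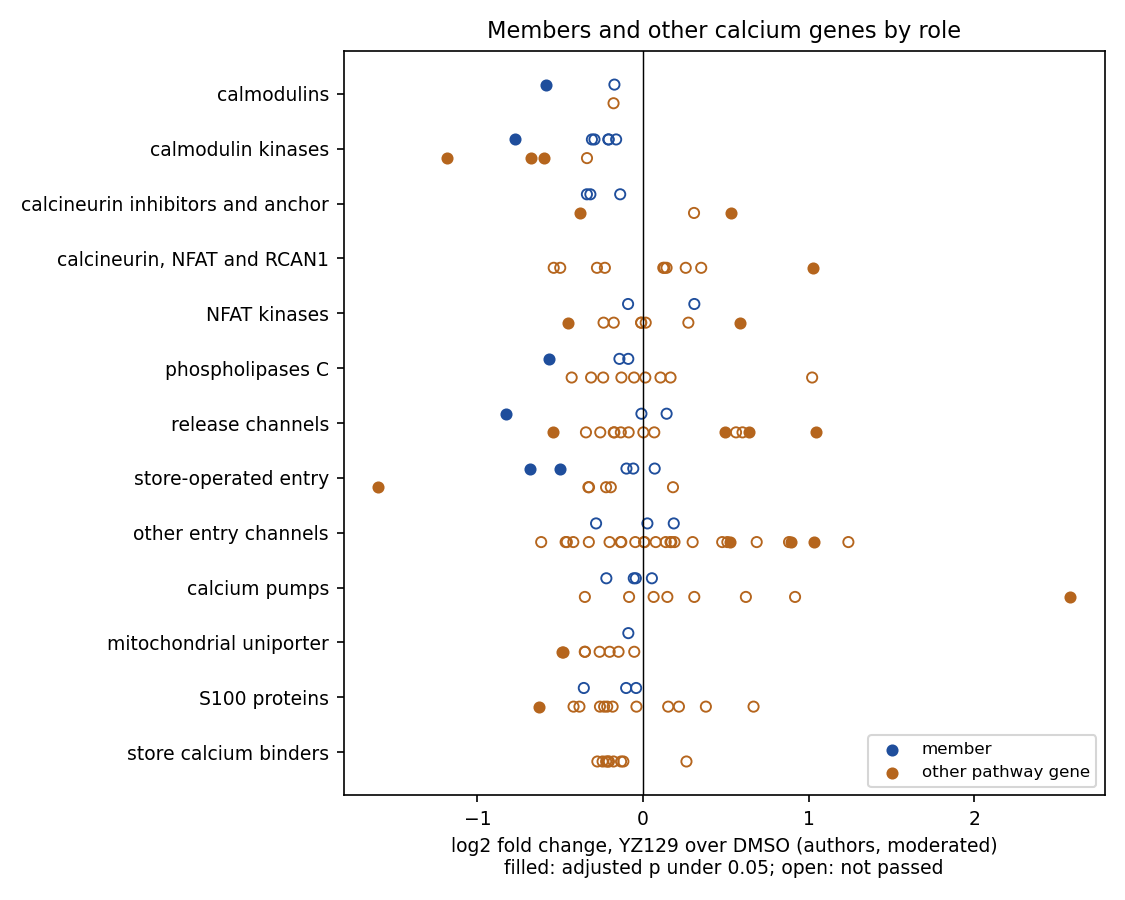
The log2 fold change (horizontal axis, YZ129 over DMSO) of the 35 tested members in blue and of 117 other tested calcium pathway genes in brown, by role, with filled points for an adjusted p under 0.05. Filled points lie below 0 in the rows of calmodulins, calmodulin kinases, phospholipases C, store-operated entry, mitochondrial uniporter and S100 proteins, and above 0 in those of calcineurin and NFAT, other entry channels and pumps. They lie on both sides among calcineurin inhibitors and anchors, NFAT kinases and release channels, and the store calcium binders have none.

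Over the whole list of 117 other calcium pathway genes tested, 10 rose and 10 fell, 8.55% each, against 5.24% and 7.64% of all tested genes. After centring on the level the counts were 12 and 4. CAMK2N2 was among those lost by centring (adjusted p = 0.064, normal test with Benjamini-Hochberg adjustment). With the adjustment made over every gene of the table, CAMK2N2, CHP1, DYRK1B, ITPKA, ITPKC and S100A3 no longer passed, at adjusted p from 0.050 to 0.058 (DESeq2 columns). The precision behind a member that did not pass varied. With these standard errors an estimated log2 change of 0.38 to 0.75 in size, depending on the gene, would have been needed to pass. These are sizes of the estimate and not of the true change, so they are not a limit of detection. In these bulk samples a smaller share of cells expressing a gene and less RNA per cell cannot be told apart.

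The mean levels over 8 libraries of the glioma and astroglial markers were mixed. Because the source of 4 of these libraries is not known, mean levels cannot settle the cell label of the 4 samples described. In the authors' deposited table VIM had 298885, CD44 134994, SLC1A3 1891 and NES 909. The astrocyte filament gene GFAP had 52.2 in the authors' deposited table, while S100B, at 1.12, and SOX2, at 0.851, were near 0. Among 10 tested astroglial and glioma markers 4 fell and 0 rose, among 6 neuronal markers 3 fell, among 3 blood cell markers 1 rose and among 5 epithelial markers 0 passed (DESeq2 columns). Of all tested genes 7.64% passed as lower and 5.24% as higher. Of the neuronal markers TUBB3 had a mean level of 3031, MAP2 1627, SNAP25 716 and SYT1 408 in the authors' deposited table. GAP43 had 147 and SYN1 51.1, while RBFOX3 had 3.90 and STMN2 0.821. TUBB3 fell by 1.84 ± 0.16 and SNAP25 by 1.43 ± 0.17 on the log2 scale in the authors' deposited table. These were the largest changes among the tested markers. Of the blood cell markers PTPRC had a mean level of 2.28 and CD3E 0.426, but LCP1 1213 and CSF1R 449 in the authors' deposited table. Of the epithelial markers CDH1 had 1.23 and KRT19 0.588, and KRT8 had the highest level, 93.7, in the authors' deposited table. The part of these markers in the results was not tested.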

How the data were processed

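Poly(A) RNA of U87 cells was sequenced, per the labels' protocols, in 4 libraries grouped by title. The data are the authors' own results table for the comparison, without values per library. Cuffdiff, Cufflinks 2.2.1, TopHat2 2.0.12 and hg19 appear in the submitters' processing notes, with no role. The authors' column names are those of DESeq2, and no source used here names the counter or annotation. Per the file headers the authors gave a mean level (a normalized signal), a log2 fold change with its SE, a p-value, its adjusted value and a Wald score.

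Tested on the file, the deposited score equals the log2 change over its SE, and the adjusted p a Benjamini-Hochberg adjustment over 14812 genes; 4937 genes had none. The lowest mean levels are sums of read steps: 8 steps gave 1372 of 1372 levels within 1e-07, so 8 libraries entered the mean, and no source used here says whether they entered the SE. Genes with 2 reads had changes of at most 0.58 in size, hence moderation. Depth in reads is unknown, so no counting interval or floor is given. Nothing says that libraries came from separate cultures, so p-values measure only the spread between libraries, which may be technical.

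The members and lists were chosen with earlier results of these data known. All members are named. Of other pathway genes the called ones are named (at most 20, smallest adjusted p first), with the calcineurin and NFAT genes. Some genes are not reported here. No list test was made. Alternatives were other thresholds, adjustment over every gene, a fold of 1.5, centring on the decile of level and a level of at least 100. Centring and adjustment were tested on simulated data. Python 3.11.15, pandas 2.3.3 and scipy 1.17.1 were used.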

Additional observations from a re-analysis of the deposited data

How the results depend on the processing

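No paired analysis was possible because the data hold no values per library, and for the same reason no replicate could be left out. The members called lower numbered 6 (17.1%) under an adjusted p under 0.1, under adjustment over every gene and for levels of at least 100. They numbered 4 (11.4%) under an adjusted p under 0.01, with a fold of at least 1.5 and after centring on the level. In these last settings ORAI1 and PLCD1 were lost each time. Of all genes 17.4% passed in either direction under 0.1 (1506 lower). With adjustment over every gene 8.8% passed (1023 lower), and at levels of at least 100 15.3% (1155 lower). The shares were 7.72% under 0.01 (698 lower), 8.17% with the fold (645 lower) and 11.6% after centring (804 lower). The members called higher numbered 0 under all 6 alternatives. Centring moved the members' median to -0.026 and turned 8 uncalled members above 0, namely DYRK1A (0.0024), S100A11 (0.11), S100A6 (0.054), ATP2A2 (0.11), ATP2B1 (0.10), PLCB3 (0.027), ITPR2 (0.10) and ORAI2 (0.057). The other pathway genes called lower numbered 4 under an adjusted p under 0.01, 5 under adjustment over every gene, 5 with the fold of 1.5 and 4 after centring, against 10. The cause was not tested. The SE of the tested members, 0.14 to 0.28, sets how large an estimate had to be to pass.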

Other observations

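Genes for calcium-binding proteins of the endoplasmic reticulum and Golgi lumen, which buffer the store, gave 0 calls among 9 tested in the authors' deposited table with DESeq2 columns and 0 at an unadjusted p under 0.05. The lectin chaperones CALR and CANX had log2 changes of -0.28 ± 0.16 and -0.21 ± 0.15 in the authors' deposited table, and the reticulocalbin family members RCN1 and CALU -0.21 ± 0.15 and -0.13 ± 0.14. Of the 9, 8 lay below 0, with a median of -0.21, and 6 after centring on the level, with a median of -0.05. These genes were named after their values were seen.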
